A study of Rattus norvegicus with 63 samples.

Results

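The genes described here encode the proteasome, its regulators and the chaperones that assemble it, measured as RNA in rat liver. They were all genes whose single array annotation symbol begins with Psma, Psmb, Psmc, Psmd, Psme, Psmf or Psmg, except Psmb8 and Psmb9, and where a gene had several such probe sets the one with the greatest average across the arrays stood for it. This gave 41 of the 10411 genes on the array. By role they were 7 alpha and 6 beta subunits of the catalytic 20S core, 5 ATPases and 9 other subunits of the 19S cap, 3 cap assembly chaperones (Psmd5, Psmd9 and Psmd10), 3 activators (Psme1, Psme2 and Psme4), the inhibitor Psmf1 and 4 core assembly chaperones (Psmg1 to Psmg4). The prefix rule also took in Psmb10, which is an inducible and not a constitutive subunit, and Psmc3ip and Psme3ip1, which are not proteasome subunits. The first 4 of these roles, 27 genes, are called core subunits below. Psmb6, Psme3, Psmc6, Psmd12 and Psmd14 were not analysed here because no probe set carried their symbol alone.

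The proteasome degrades proteins that carry ubiquitin chains. Its core is a barrel of alpha rings, which gate the entrance, around beta rings, which hold the cutting sites, and the cap binds, unfolds and feeds in the substrate with its ring of ATPases. Activators can replace the cap, and in cells exposed to interferon the inducible subunits Psmb8, Psmb9 and Psmb10 take the place of constitutive cutting subunits in the immunoproteasome, which supplies peptides for antigen presentation.

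The 63 arrays came from livers of male Wistar Hanover rats, 8 to 10 weeks old and dosed by gavage, with 1 animal per array and 3 animals in each of 21 groups. The compounds, with the daily dose in mg per kg body weight and the days of dosing, were acetamide (AA, 3000, 14 days), cefuroxime (CFX, 250, 14 days), C.I. Direct Black (CIDB, 146, 7 days), cyproterone acetate (CPA, 100, 14 days), diethylstilbestrol (DES, 10, 3 days), dehydroepiandrosterone (DHEA, 600, 14 days), dimethylnitrosamine (DMN, 4, 7 days), ethionine (ETH, 200, 14 days), methylcarbamate (Mcarb, 400, 14 days), methapyrilene (MPy, 60, 7 days), nifedipine (Nif, 3, 14 days), piperonylbutoxide (PBO, 1200, 3 days), thioacetamide (TAA, 19.2, 7 days), Wy-14643 (Wy, 60, 3 days) and phenobarbital (PB, 14 days, dose not used here). Each was set against the vehicle animals of its own control set. AA, DHEA, Mcarb, MPy, TAA and Wy share methylcellulose (MC) set 1, CFX and Nif share MC set 2, CIDB and DMN share corn oil (CO) set 3, CPA has CO set 4, DES, ETH and PBO share MC set 5 and PB has MC set 6, so comparisons within a set are not independent. The labels give these vehicles, and the study's methods call the vehicle of the MC sets methylcellulose in one place and carboxymethyl cellulose in another. The methods describe the controls as matched in time, but MC sets 1 and 5 are labelled 14 days, so for DES, PBO and Wy (3 days) and for MPy and TAA (7 days) compound and days of dosing cannot be told apart if the labels hold. The 3 animals of each treated group were picked by histopathology and are not a random draw, and how the vehicle animals were picked is not given in the sources used here. In bulk tissue, fewer cells of a type and less RNA per cell cannot be told apart. The 7 measured hepatocyte markers, among them the albumin gene Alb, had mean levels at or above the 99.3 percentile of probe sets.

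DHEA, PBO and Wy raised most of the proteasome genes and ETH raised 12. Each of the remaining compounds raised 5 or fewer in the model used, but under alternatives CPA raised up to 19, DMN up to 17, CIDB up to 13, Nif up to 7 and DES up to 6, and ETH raised up to 20. A gene is said to have risen or fallen where its limma test passed an adjusted p of 0.05 (Benjamini-Hochberg over 15866 probe sets), and values are log2 fold changes, compound minus vehicle, ± SE with 3 animals in each group unless another quantity is named. DHEA raised 28 and lowered 0 of the 41 genes, where 9.3% of all probe sets rose and 8.37% fell. PBO raised 27 and lowered 0, where 7.03% of probe sets rose and 7.46% fell. Wy raised 21 and lowered 1, where 6.5% rose and 6.45% fell. The median change of the 41 genes was 0.48 in DHEA, 0.47 in PBO and 0.32 in Wy, beside medians of all probe sets of 0.01, -0.02 and 0.00. Of the 615 gene by compound comparisons, 107 were called up and 10 down, and 76 of the 107 belonged to these 3 compounds.

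**Figure D1:**
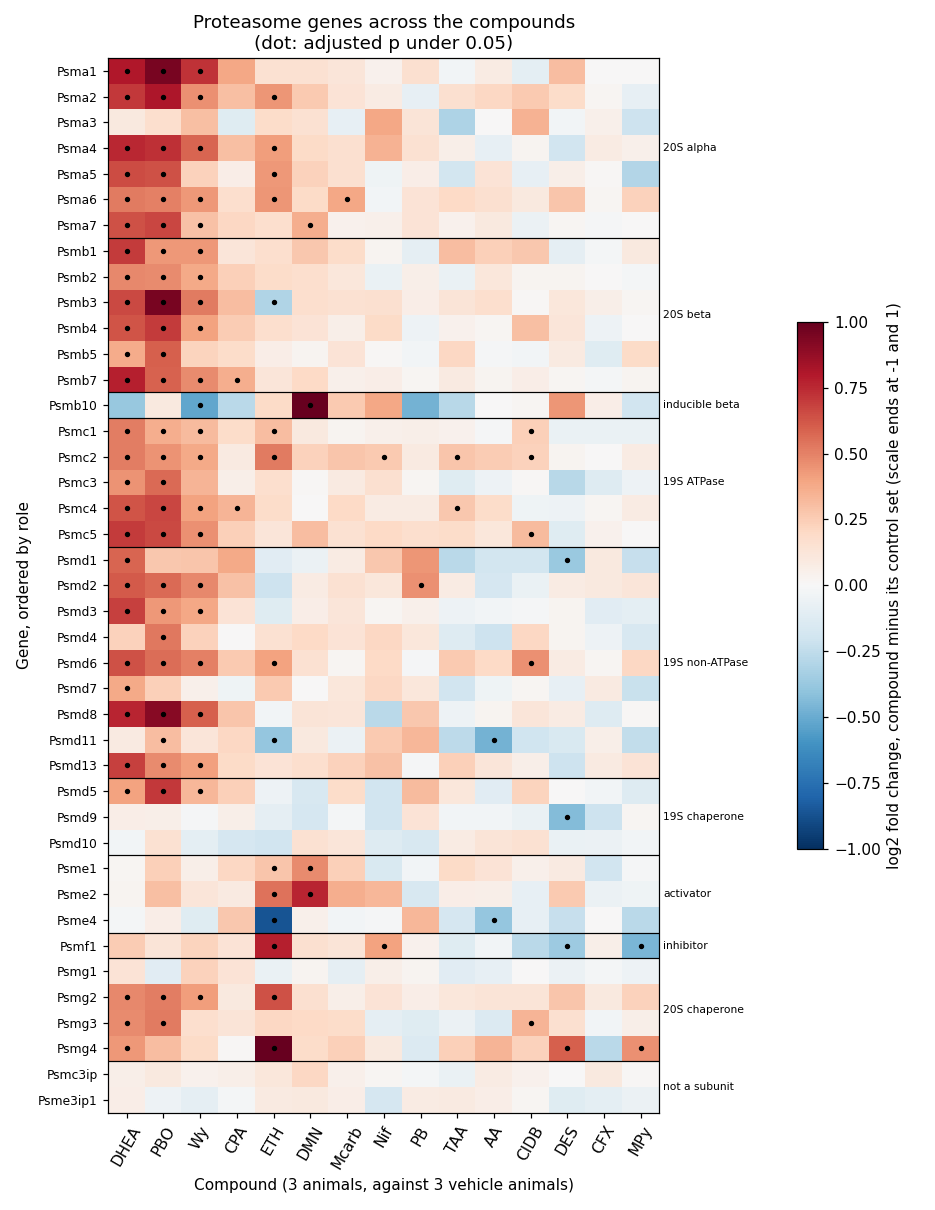
Heatmap of the log2 fold change (colour, compound minus its control set) of 41 proteasome genes, in rows by role, across 15 compounds, in columns by median change; a dot marks an adjusted p under 0.05. The DHEA, PBO and Wy columns hold 28, 27 and 21 genes called up, and the CFX column holds 0 calls.

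**Figure D2:**
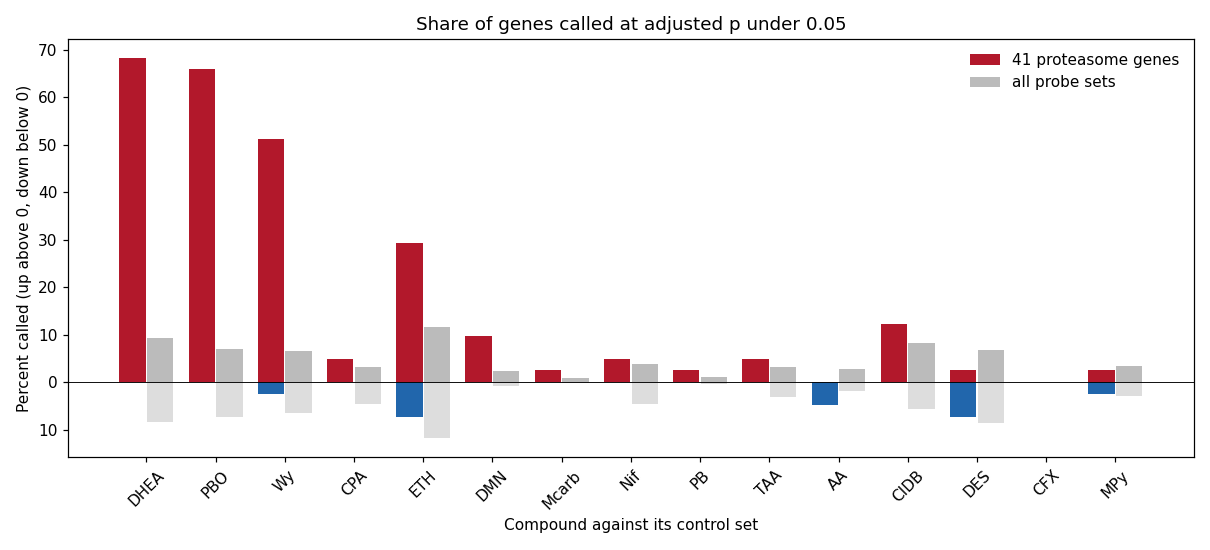
Percent of the 41 proteasome genes (left bar of each pair, red for up and blue for down) and of all 15866 probe sets (right bar, grey) called at an adjusted p under 0.05, with genes called up above 0 and genes called down below 0. In DHEA 68.3% of the genes rose, beside 9.3% of all probe sets.

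The genes that rose came from both the catalytic core and the cap. Of the 27 core subunits DHEA and PBO each raised 24 and Wy raised 19, with median changes of 0.63, 0.57 and 0.40. All 6 constitutive beta subunits rose in DHEA and in PBO, and 5 rose in Wy, where Psmb5, which carries the chymotrypsin-like site, changed by 0.22 ± 0.09 (adjusted p = 0.107). Of the 7 alpha subunits, 6 rose in DHEA and in PBO, and Psma3 was called in none of the 15 compounds. The probe sets used for the activators did not pass the test in these 3 compounds, with changes between -0.12 and 0.30, but another probe set of Psme4 rose in PBO (0.66 ± 0.11, adjusted p = 9.15e-06) and the remaining one changed by 0.09 ± 0.13.

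Psma1, an alpha ring subunit, had log2 levels of 11.04, 11.07 and 11.11 in DHEA livers, against 10.35, 10.17 and 10.28 in MC set 1 livers. In PBO livers it had 10.88, 11.07 and 10.80, against 10.40, 9.76 and 9.74 in MC set 5. In Wy livers it had 10.69, 11.12 and 11.14, against the same MC set 1 animals. Every treated animal lay above every animal of its control set, and the changes were 0.80 ± 0.15 in DHEA (1.75-fold, adjusted p = 5.85e-05), 0.95 ± 0.15 in PBO (1.93-fold, adjusted p = 4.85e-06) and 0.72 ± 0.15 in Wy (1.64-fold, adjusted p = 0.000399). The MC set 5 animal at 10.40 stood apart from the other 2 of its set, and the lowest PBO animal, at 10.80, was still above it.

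Psmd8, a cap subunit of the lid, had 11.45, 11.52 and 11.72 in DHEA livers, against 10.79, 10.72 and 10.89 in MC set 1. It had 11.78, 11.78 and 11.44 in PBO livers, against 10.79, 10.87 and 10.62 in MC set 5. The groups did not overlap, and the change was 0.76 ± 0.10 in DHEA (adjusted p = 2.35e-07), 0.91 ± 0.10 in PBO (adjusted p = 7.14e-09) and 0.60 ± 0.10 in Wy (adjusted p = 3.02e-05). Psmb7, which carries the trypsin-like site, reached 12.06, 12.10 and 12.14 in DHEA livers, against 11.35, 11.25 and 11.36 in MC set 1, a change of 0.78 ± 0.10 (adjusted p = 1.43e-07). Among the ATPases, which unfold the substrate, Psmc4 changed by 0.63 ± 0.09 in DHEA, 0.67 ± 0.09 in PBO and 0.40 ± 0.09 in Wy, and rose in all 3.

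The assembly chaperones rose in part. Psmd5, which holds ATPases during cap assembly, rose by 0.40 ± 0.11 in DHEA, 0.71 ± 0.11 in PBO and 0.33 ± 0.11 in Wy, with the call lost in DHEA without DHEA replicate 3 (adjusted p = 0.089) and in Wy without Wy replicate 2 or 3 or MC set 1 replicate 4 or 5 (0.0705 to 0.112). Psmg2, which with Psmg1 builds the alpha ring, rose by 0.48 ± 0.10, 0.51 ± 0.10 and 0.42 ± 0.10 in the same compounds, while its partner Psmg1 and the cap chaperone Psmd10 were called in no compound. Psmc3ip and Psme3ip1 were also called in none.

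**Figure D3:**
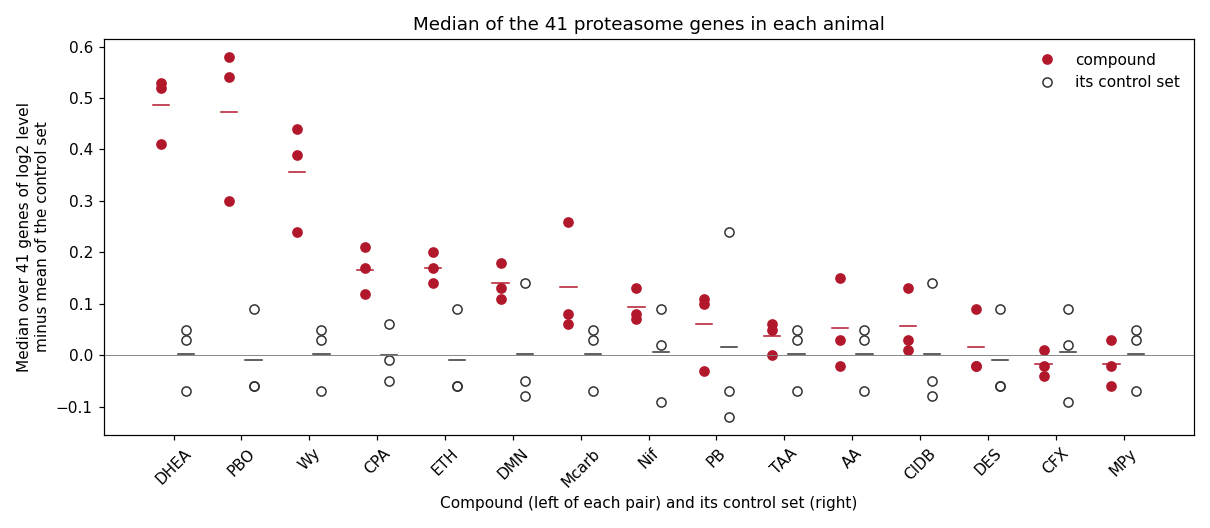
Median over the 41 genes of the log2 level minus the control set mean, for each animal, with the compound (filled) left of its control set (open) and a line at the mean of 3 animals. DHEA animals lie at 0.41, 0.53 and 0.52, PBO animals at 0.58, 0.54 and 0.30 and Wy animals at 0.24, 0.44 and 0.39.

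Per animal, the median of the 41 genes was 0.41, 0.53 and 0.52 above the MC set 1 mean in DHEA livers and 0.24, 0.44 and 0.39 above it in Wy livers, where the MC set 1 animals lay at 0.03, -0.07 and 0.05. PBO livers lay at 0.58, 0.54 and 0.30, where the MC set 5 animals lay at 0.09, -0.06 and -0.06. No treated animal of these groups came within the range of its controls. Gene by gene, all treated animals lay above all controls for 29 genes in DHEA, 29 in PBO and 29 in Wy, where 18.4%, 12.1% and 15% of all probe sets did so, and below them for 0, 0 and 1. Across the 15 compounds the median Pearson r between pairs of core subunits was 0.71, and within groups, after each group mean was taken away, it was 0.54. Over all genes both medians were 0.00. These values describe libraries that share arrays and control sets and carry no p.

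Few genes passed the test between these 3 compounds, though most were higher in DHEA than in Wy. DHEA exceeded Wy for 4 genes (9.76%) and fell short for 0, where 4.2% of probe sets were higher and 3.57% lower. The 4 were the core subunits Psma5 (0.42 ± 0.11, adjusted p = 0.0141), Psma7 (0.35 ± 0.10, adjusted p = 0.0185), Psmd3 (0.29 ± 0.09, adjusted p = 0.0489) and Psmd7 (0.33 ± 0.11, adjusted p = 0.0456). Of the 41 genes 35 were higher in DHEA, with a median difference of 0.14, and 14 had an unadjusted limma p under 0.05. PBO and DHEA have different control sets, so their changes were compared, a contrast added after seeing the data. The difference passed the test for 0 of 41 genes, where it was positive for 2.79% and negative for 3.97% of probe sets, and 2 genes had an unadjusted p under 0.05. Between the changes in PBO and Wy it also passed for 0 (2.62% and 2.86%), with 12 genes at an unadjusted p under 0.05 and a lowest adjusted p of 0.0562. These counts do not show that the compounds act alike, and doses and days differ among all 3.

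The promoters of 3 risen subunits are printed because their windows hold different matches. Each is 300 bases, from 250 before the gene start to 50 after, taken from RefSeq on GRCr8, with Psma1 at chr1:177887808-177888107 on the minus strand, Psmb3 at chr10:83193537-83193836 on the plus strand and Psmb5 at chr15:32047330-32047629 on the minus strand. Capitals mark CCAAT, TGACNNNGC (the core of the antioxidant response element) and GAAA, any 2 bases and GAAA again (the core of the interferon-stimulated response element, searched after values were seen), each searched on both strands.
Psma1: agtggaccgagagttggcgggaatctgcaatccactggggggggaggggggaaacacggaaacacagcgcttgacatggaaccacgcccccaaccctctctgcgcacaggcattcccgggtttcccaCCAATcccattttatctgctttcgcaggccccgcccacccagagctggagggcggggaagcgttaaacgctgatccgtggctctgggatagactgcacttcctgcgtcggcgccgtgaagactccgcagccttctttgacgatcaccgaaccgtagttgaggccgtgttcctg
Psmb3: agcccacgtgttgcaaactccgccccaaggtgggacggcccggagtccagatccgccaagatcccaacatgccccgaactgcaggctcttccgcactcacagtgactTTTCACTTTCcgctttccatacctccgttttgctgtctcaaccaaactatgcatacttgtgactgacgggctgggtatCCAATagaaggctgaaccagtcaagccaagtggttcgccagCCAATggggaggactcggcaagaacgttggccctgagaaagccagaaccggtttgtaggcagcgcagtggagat
Psmb5: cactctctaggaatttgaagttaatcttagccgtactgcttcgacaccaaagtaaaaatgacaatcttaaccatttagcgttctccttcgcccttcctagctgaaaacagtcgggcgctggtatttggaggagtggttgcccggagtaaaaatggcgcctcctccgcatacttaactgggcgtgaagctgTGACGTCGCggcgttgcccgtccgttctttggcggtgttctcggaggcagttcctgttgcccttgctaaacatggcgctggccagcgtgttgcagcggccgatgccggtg
Psma1 has CCAAT 123 bases before the start, Psmb3 has it at 65 and 24 bases, and Psmb5 has TGACNNNGC 60 bases before the start. Of the 41 genes 39 had a promoter in the table. CCAAT was found in 20 of the 39 (51.3%), beside 37.5% of 33469 promoters of the same length, and TGACNNNGC in 7 (17.9%), beside 12.1%. The shares are a description, without a test, and a match is not a site.

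Ethionine, an analogue of methionine, raised genes of most roles and lowered the beta subunit Psmb3, the cap subunit Psmd11 and the activator Psme4. It raised 12 and lowered 3 of the 41 genes, where 11.7% of probe sets rose and 11.8% fell, and of the 27 core subunits 7 rose and 2 fell. With the methylcellulose sets pooled 20 rose and 3 fell. Psmg4, a chaperone of the alpha ring, had 10.19, 9.93 and 10.18 in ETH livers, against 9.17, 8.77 and 9.31 in MC set 5, a change of 1.02 ± 0.14 (2.02-fold, adjusted p = 8.71e-08). Without a compound, MC set 2 was above MC set 5 for this gene by 0.53 ± 0.14 (adjusted p = 0.0226). Psmf1, an inhibitor of the 20S core, had 10.79, 10.53 and 10.44 in ETH livers, against 10.11, 9.64 and 9.67 in MC set 5. The groups did not overlap for either gene, and Psmf1 changed by 0.78 ± 0.11 (adjusted p = 3.72e-07). The ATPase Psmc2 rose by 0.52 ± 0.08 (adjusted p = 1.32e-06) and Psmg2 by 0.64 ± 0.10 (adjusted p = 2.55e-06).

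Psme4, the large activator also called PA200, fell in ETH livers. It had 9.83, 9.91 and 9.85 there, against 10.73, 10.93 and 10.50 in MC set 5, a change of -0.86 ± 0.10 (adjusted p = 1.33e-09). Of its other probe sets, one changed by -0.82 ± 0.11 (adjusted p = 2.83e-08) and one by -0.06 ± 0.13, so the probe sets disagree. The cap subunit Psmd11 had 10.68, 10.70 and 10.66 in ETH livers, against 11.20, 11.12 and 10.90 in MC set 5 (-0.39 ± 0.10, adjusted p = 0.00217). Its other probe set changed by -0.09 ± 0.11, and in PBO, where the probe set used rose by 0.31 ± 0.10, a call lost without PBO replicate 2 or MC set 5 replicate 9 (adjusted p 0.278 and 0.197), the other changed by -0.27 ± 0.11 (adjusted p = 0.0952). Psmd11 and Psme4 also differed between vehicle sets. MC set 1 was above MC set 6 for these 2 genes and below for 0 (4.55% of probe sets above, 3.21% below). MC set 5 was above MC set 6 for 4, both among them, and below for 2, Psmd10 and Psmg3 (6.3% and 3.92%). The others of the 4 were Psmd1 (0.48 ± 0.13, adjusted p = 0.0106) and Psmd2 (0.36 ± 0.10, adjusted p = 0.0136). MC set 2 was above MC set 5 for 1, Psmg4 (0.53 ± 0.14, adjusted p = 0.0226). It was below MC set 5 for 2, again Psmd11 and Psme4 (1.45% and 1.27%). MC set 1 was above MC set 2 for Psmd11 alone (0.429% and 0.485%). No gene passed between MC sets 1 and 5 (0.876% and 1.26%), MC sets 2 and 6 (1.27% and 0.681%) or CO sets 3 and 4 (0.195% and 0.271%), where 1, 3 and 3 had an unadjusted p under 0.05. With the methylcellulose sets pooled, Psmd11 in ETH changed by -0.21 (adjusted p = 0.119).

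Psmb3, a beta subunit, moved in opposite directions. It had 10.90, 10.75 and 11.04 in ETH livers, against 11.29, 11.10 and 11.21 in MC set 5 (-0.30 ± 0.11, adjusted p = 0.0443), and 12.46, 12.19 and 11.79 in PBO livers, against the same MC set 5 animals (0.95 ± 0.11, adjusted p = 2.59e-08). The ETH call is lost without ETH replicate 1 or 2 or without MC set 5 replicate 7 or 9, with adjusted p between 0.0864 and 0.226. ETH set directly against PBO was lower for 22 genes and higher for 2, where 14% of probe sets were lower and 14.1% higher, and set against DES it was higher for 15 and lower for 3, where 14.8% were higher and 15.5% lower. PBO set against DES, both dosed for 3 days, was higher for 30 genes and lower for 0 (6.91% and 5.29%), with Psma4 at 0.92 ± 0.13 (adjusted p = 1.14e-06) and the ATPase Psmc3 at 0.85 ± 0.12 (adjusted p = 8.83e-07). The change in ETH was below that in DHEA for 16 genes and above it for 3 (9.5% and 8.5%), and below that in Wy for 6 and above it for 3 (7.23% and 7.96%).

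**Figure D4:**
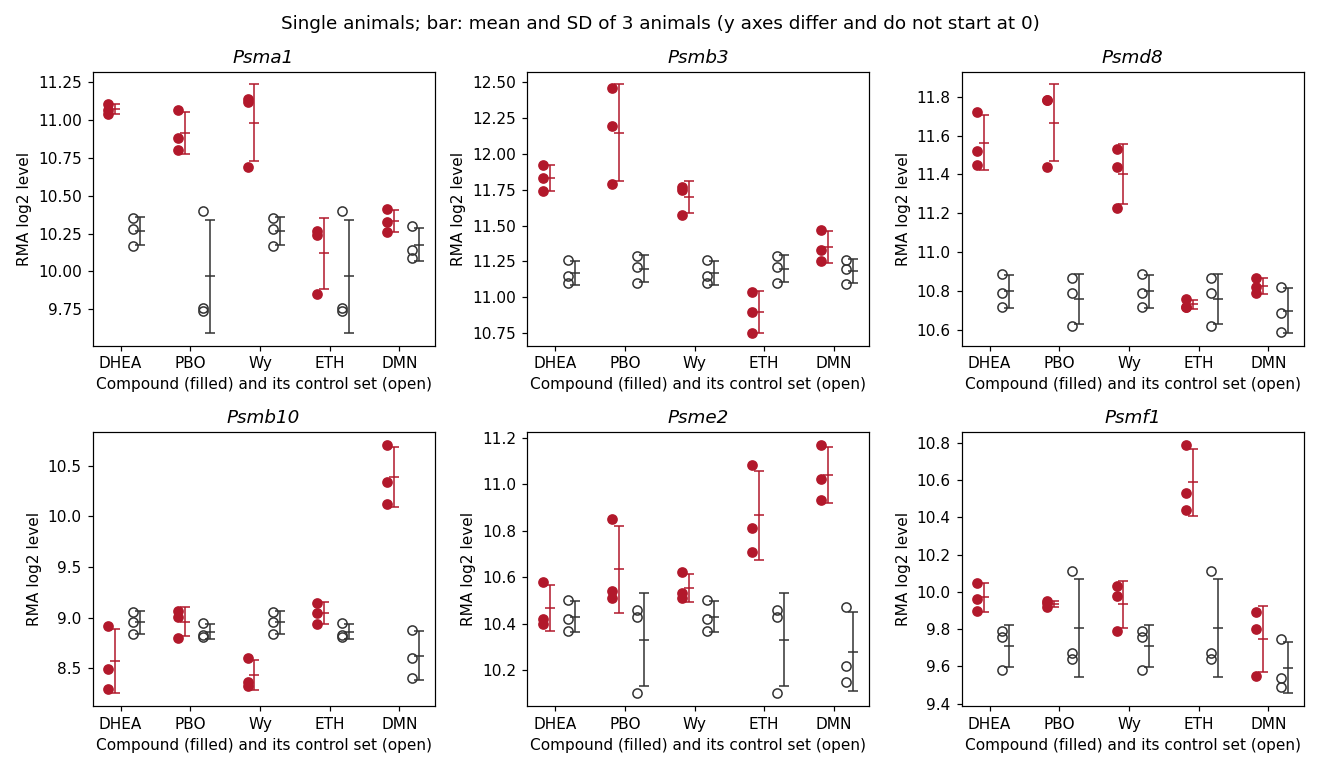
RMA log2 level of 6 genes in single animals for 5 compounds (filled, left) and their control sets (open, right), with the mean and SD of 3 animals; the y axes differ and do not start at 0. Psma1, Psmb3 and Psmd8 were called up in DHEA, PBO and Wy, Psmb10 in DMN, Psme2 in ETH and DMN, and Psmf1 in ETH. Without a call, all treated animals also lay above all controls for Psme2 in PBO and Wy and for Psmf1 in DHEA.

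Dimethylnitrosamine raised 4 and lowered 0 of the 41 genes, where 2.31% of probe sets rose and 0.92% fell, and 3 of the 4 belong to the inducible system. With array weights 17 rose and 0 fell. Psmb10, which replaces Psmb7 in the immunoproteasome, had 10.12, 10.34 and 10.71 in DMN livers, against 8.88, 8.40 and 8.60 in CO set 3. All DMN animals lay above all controls, and the change of 1.77 ± 0.18 (3.4-fold, adjusted p = 4.54e-10) was the only call in the 615 comparisons above 2.5-fold. Psme2 and Psme1, which form the interferon-inducible activator PA28, rose by 0.76 ± 0.11 (adjusted p = 1.23e-05) and 0.47 ± 0.09 (adjusted p = 0.000632). The alpha subunit Psma7 rose by 0.36 ± 0.10 (adjusted p = 0.0305), a call lost without CO set 3 replicate 5 or 6 or DMN replicate 1 or 3 (adjusted p 0.0740 to 0.248). With the corn oil sets pooled, Psma7 in DMN changed by 0.23 (adjusted p = 0.134). CIDB, dosed for the same 7 days and sharing CO set 3, was lower than DMN for 6 genes and higher for 1 (6.51% and 6.35%), with Psmb10 at -1.75 ± 0.18 (adjusted p = 2.03e-10) and Psme2 at -0.83 ± 0.11 (adjusted p = 4.14e-07).

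The inducible subunits outside the rule were Psmb8 and Psmb9. Psmb8 changed by 1.47 ± 0.25 in DMN and 0.83 ± 0.25 in ETH and rose in both, and it fell in DHEA (-1.14 ± 0.25), PBO (-0.94 ± 0.25) and Wy (-1.40 ± 0.25), the compounds in which the core subunits rose. Psmb9 rose by 1.75 ± 0.27 in DMN and 1.10 ± 0.27 in ETH. It did not pass in DHEA (-0.38 ± 0.27), PBO (-0.66 ± 0.27) or Wy (-0.13 ± 0.27), with adjusted p of 0.377, 0.106 and 0.846. Psmb10 did not pass in DHEA (-0.38 ± 0.18, adjusted p = 0.136) or PBO (0.10 ± 0.18, adjusted p = 0.789). Psmb10 fell in Wy by 0.52 on the log2 scale (adjusted p = 0.0407), a call lost without Wy replicate 2 or 3 or any of the 3 MC set 1 animals (adjusted p 0.0533 to 0.154), and changed by 0.19 ± 0.18 in ETH (adjusted p = 0.501). Psme2 rose in ETH by 0.54 ± 0.11 and Psme1 by 0.28 ± 0.09, with the Psme1 call lost without ETH replicate 1 or MC set 5 replicate 7 or 8 (adjusted p 0.0635 to 0.108).

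The promoters of Psmb10 and Psme2 are printed because both hold the repeat of GAAA described above (Psmb10 at chr19:50743243-50743542 on the minus strand, Psme2 at chr15:33052702-33053001 on the minus strand, RefSeq, GRCr8, the same window, with capitals marking this motif).
Psmb10: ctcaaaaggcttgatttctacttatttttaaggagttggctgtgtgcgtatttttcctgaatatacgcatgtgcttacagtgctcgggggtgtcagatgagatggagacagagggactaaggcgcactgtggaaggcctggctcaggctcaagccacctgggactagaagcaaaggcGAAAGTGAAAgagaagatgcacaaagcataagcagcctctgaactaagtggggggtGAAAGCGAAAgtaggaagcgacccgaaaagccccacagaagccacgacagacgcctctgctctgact
Psme2: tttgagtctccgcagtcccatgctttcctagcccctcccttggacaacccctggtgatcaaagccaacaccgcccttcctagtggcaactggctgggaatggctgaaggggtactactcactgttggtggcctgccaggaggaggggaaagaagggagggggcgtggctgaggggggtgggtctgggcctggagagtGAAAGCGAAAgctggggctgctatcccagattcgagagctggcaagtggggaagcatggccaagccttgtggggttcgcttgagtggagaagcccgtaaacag
Psmb10 has it 73 and 17 bases before the start and Psme2 at 53 bases. It was found in 6 of the 39 promoters (15.4%), beside 3.92% of 33469. The same motif stands in Psma4, Psmb3, Psmd7 and Psmg4, none of which was called in DMN. Psme1, which rose in DMN, has 0 matches. In Psmb3 the motif reads on the opposite strand 143 bases before the start. A link between the motif and the calls was not tested.

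The other compounds gave few calls in the model used. CIDB raised 5 and lowered 0 (8.14% and 5.75% of probe sets), and with array weights it raised 13 and lowered 1. Psmd6, a cap subunit, had 10.07, 9.93 and 10.20 in CIDB livers, against 9.76, 9.58 and 9.47 in CO set 3 (0.46 ± 0.11, adjusted p = 0.00345). The other 4 were Psmc1, Psmc2, Psmc5 and Psmg3, with changes of 0.24, 0.23, 0.32 and 0.34, and all 4 lost the call without CIDB replicate 2 or 3 or CO set 3 replicate 6 (adjusted p 0.0527 to 0.256). Psmc1 also lost it without CIDB replicate 1, and Psmc1, Psmc2 and Psmc5 without CO set 3 replicate 5 (0.0819 to 0.348). Psmd6 kept its call whichever animal was left out. All 4 erythroid markers fell in CIDB, with mean levels of 7.99 to 8.19 in CIDB animals, against 10.48 to 10.96 in controls, and of 9 macrophage genes 4 rose and 1 fell (9.53 to 9.69, against 8.99 to 9.45 in controls). CPA raised Psmc4 (0.34 ± 0.09, adjusted p = 0.0079) and Psmb7 (0.36 ± 0.10, adjusted p = 0.0222) and lowered 0 (3.11% and 4.73%). Psmb7 lost the call without CPA replicate 1 or 2 or CO set 4 replicate 3 (0.0589 to 0.125). In CPA all treated animals lay above all controls for 19 genes, where 14.6% of probe sets did so, and the number raised was 19 with quantile normalization, 10 with array weights and 8 with the corn oil sets pooled, with 0 lowered in each. Of 9 macrophage genes 0 rose and 5 fell in CPA (8.84 to 9.23 in CPA animals, against 9.39 to 9.90 in controls), of 10 stellate and matrix genes 0 rose and 4 fell (7.06 to 7.23, against 7.53 to 7.78), and of 4 erythroid genes 0 rose and 3 fell (9.82 to 10.12, against 10.37 or above).

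DES raised Psmg4 alone, with 9.67, 9.56 and 9.82 in DES livers, against 9.17, 8.77 and 9.31 in MC set 5 (0.60 ± 0.14, adjusted p = 0.00119). Without a compound, MC set 2 was above MC set 5 for Psmg4 by 0.53 ± 0.14 (adjusted p = 0.0226). DES lowered 3 genes (6.77% of probe sets rose and 8.72% fell). These were the cap chaperone Psmd9 (-0.43 ± 0.10, adjusted p = 0.00149), the scaffold subunit Psmd1 (-0.37 ± 0.13, adjusted p = 0.0397) and Psmf1 (-0.36 ± 0.11, adjusted p = 0.0183). Psmd1 and Psmf1 lost the call without DES replicate 1 or 2 or MC set 5 replicate 7, and Psmd1 also without MC set 5 replicate 8 (adjusted p 0.0770 to 0.243). With the methylcellulose sets pooled, Psmd1 in DES changed by -0.15 (adjusted p = 0.452) and Psmf1 by -0.20 (adjusted p = 0.178). Psmd11 changed by -0.15 in DES on the probe set used, but its other probe set fell (-0.82 ± 0.11, adjusted p = 1.76e-07). AA raised 0 and lowered 2 (2.74% and 1.92%). Psmd11 had 10.57, 10.53 and 10.81 in AA livers, against 11.08, 10.95 and 11.28 in MC set 1 (-0.47 ± 0.10, adjusted p = 0.00229), and Psme4 changed by -0.39 ± 0.10 (adjusted p = 0.0128), a call lost without AA replicate 1 or 2 or MC set 1 replicate 4 or 6 (0.0504 to 0.0900). The other probe sets of Psme4 changed by -0.08 ± 0.11 and -0.19 ± 0.13 in AA. With the methylcellulose sets pooled neither gene passed (0.165 and 0.115).

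MPy raised Psmg4 (0.46 ± 0.14, adjusted p = 0.0314) and lowered Psmf1 (-0.46 ± 0.11, adjusted p = 0.00548), where 3.28% of probe sets rose and 3.04% fell. Psmf1 had 9.32, 9.29 and 9.14 in MPy livers, against 9.79, 9.58 and 9.76 in MC set 1, without overlap. TAA raised Psmc2 (0.28 ± 0.08, adjusted p = 0.0252) and Psmc4 (0.27 ± 0.09, adjusted p = 0.0431) and lowered 0 (3.15% and 3.25%). Psmg4 in MPy and Psmc4 in TAA lost the call without any 1 of their 6 animals (0.0527 to 0.124), and Psmc2 in TAA without TAA replicate 2 or 3 or MC set 1 replicate 4 or 5 (0.0705 to 0.150). Other probe sets of Psmd11 and Psme4 fell where those used did not pass, in TAA (-0.48 ± 0.11 and -0.54 ± 0.13) and in MPy (Psmd11 -0.52 ± 0.11, Psme4 -0.53 ± 0.13 and -0.41 ± 0.11).

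Nif raised Psmf1 (0.40 ± 0.11, adjusted p = 0.0153) and Psmc2 (0.26 ± 0.08, adjusted p = 0.0310) and lowered 0 (3.78% and 4.68%). Both lost the call without Nif replicate 1 or MC set 2 replicate 10, and Psmc2 also without Nif replicate 2 or 3 or MC set 2 replicate 12 (0.0684 to 0.212). With the methylcellulose sets pooled neither gene passed in Nif (adjusted p = 0.114 and 0.157). Psme4 changed by -0.01 in Nif on the probe set used, but another fell (-0.86 ± 0.11, adjusted p = 3.78e-08) and the remaining one changed by 0.18 ± 0.13. Psmd11 passed on its other probe set alone in Nif (0.35 ± 0.11, adjusted p = 0.0392) and in PB (0.41 ± 0.11, adjusted p = 0.0465). Mcarb raised Psma6 alone (0.39 ± 0.10, adjusted p = 0.0369; 0.782% and 0.284%), a call lost without Mcarb replicate 1 or 3 or MC set 1 replicate 4 or 5 (0.0572 to 0.478). PB raised the scaffold subunit Psmd2 alone (0.46 ± 0.10, adjusted p = 0.00606; 0.964% and 0.384%), a call lost without MC set 6 replicate 1 (adjusted p = 0.140) and, at the threshold, without PB replicate 3. With the methylcellulose sets pooled, Psmd2 in PB changed by 0.28 (adjusted p = 0.0626). CFX gave 0 calls by limma (0.0063% of probe sets rose and 0% fell), with 2 genes at an unadjusted p under 0.05. Psmc2 rose in 7 compounds, CIDB, DHEA, ETH, Nif, PBO, TAA and Wy, more than any other of the 41 genes, though 3 of these share MC set 1 and 2 share MC set 5.

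Between the remaining pairs that share a control set, Mcarb was higher than AA for Psmd2, Psmd4, Psmd11 and Psme4 and lower for 0 (2.36% and 2.82%), and Nif was higher than CFX for Psmc2, Psme2 and Psmf1 and lower for 0 (3.84% and 4.51%). TAA against AA (3.78% and 4.36%) and MPy against TAA (1.34% and 0.769%) gave 0 calls, each with 7 genes at an unadjusted p under 0.05.

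The study groups compounds as nongenotoxic carcinogens (8), genotoxic carcinogens (2) and non-carcinogens (2). With the compound as the unit, 0 of the 41 genes passed limma between nongenotoxic carcinogens and non-carcinogens (4 at an unadjusted p under 0.05), between nongenotoxic and genotoxic carcinogens (1) or between all carcinogens and non-carcinogens (3). Of all probe sets 0.0189%, 0.0819% and 0.0126% passed in these contrasts, and CPA, TAA and Wy, which have no assigned class, were left out. The difference was above 0 for 32, 24 and 32 of the 41 genes, with medians of 0.15, 0.07 and 0.14. Each contrast has 2 compounds on 1 side, so the lack of calls does not show that the classes are alike.

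Some genes that act with the proteasome rose as well. The counts of this and the following lists stand beside shares of all probe sets, up and down, of 9.3% and 8.37% in DHEA, 7.03% and 7.46% in PBO, 6.5% and 6.45% in Wy and 11.7% and 11.8% in ETH. Of 11 measured partners, 3 rose and 1 fell in DHEA, 5 rose and 0 fell in PBO, and 2 rose and 1 fell in Wy. In CIDB 3 of them rose and 0 fell (8.14% and 5.75% of probe sets), and in ETH 1 rose and 2 fell. Adrm1, a ubiquitin receptor of the cap, rose by 0.88 ± 0.12 in DHEA, 0.59 ± 0.12 in PBO and 0.67 ± 0.12 in Wy. Nfe2l1, a transcription factor known to drive proteasome genes, rose in DHEA (0.63 ± 0.11), PB (0.42 ± 0.11) and CPA (0.36 ± 0.11) and changed by -0.22 ± 0.11 in PBO and 0.24 ± 0.11 in Wy (adjusted p = 0.2 and 0.172), and Pomp, the chaperone that matures the core, rose in PBO (0.43 ± 0.09). Ddi2, a protease known to cleave Nfe2l1, fell in ETH (-0.89 ± 0.15), AA (-0.70 ± 0.15), MPy (-0.56 ± 0.15), Wy (-0.48 ± 0.15) and DHEA (-0.43 ± 0.15). Of 34 genes of ubiquitin supply and transfer, 12 rose and 1 fell in DHEA, 10 and 1 in PBO, 6 and 1 in Wy and 3 and 6 in ETH, in ETH 8.82% and 17.6% of the list. The rise was not limited to compounds that raised most proteasome genes, as in CIDB 8 of the 34 rose and 1 fell. In Nif 4 rose and 3 fell (3.78% and 4.68% of probe sets), and in DES 2 rose and 4 fell (6.77% and 8.72%). Ufd1, which hands substrates to the segregase Vcp, rose by 0.49 ± 0.10 in DHEA and 0.53 ± 0.10 in PBO, its partner Nploc4 fell in ETH (-0.48 ± 0.12), and Ube2c, a conjugating enzyme of cell division, rose in Wy (1.98 ± 0.32).

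Targets of the oxidative stress factor NRF2 rose in PBO, and fewer of them in DHEA and Wy. Of 21 measured, 16 rose and 0 fell in PBO (median 0.78), but 5 rose and 2 fell in DHEA (median 0.03) and 2 rose and 2 fell in Wy (median 0.04). The mean level of the list was still above controls in each animal. It was 10.09 to 10.13 in DHEA animals and 9.95 to 9.98 in Wy animals, against 9.69 to 9.78 in MC set 1. In PBO animals it was 10.73 to 11.13, against 9.53 to 9.76 in MC set 5. In TAA 10 rose and 0 fell (median 0.48; 3.15% and 3.25% of probe sets), in ETH 9 and 1 (0.25), in CPA 8 and 0 (0.44; 3.11% and 4.73%), in CIDB 7 and 1 (0.31; 8.14% and 5.75%) and in DMN 7 and 0 (0.26; 2.31% and 0.92%). In PB 6 rose and 0 fell (0.24; 0.964% and 0.384%), in MPy 6 and 0 (0.26; 3.28% and 3.04%) and in DES 6 and 1 (0.23; 6.77% and 8.72%). The median change of the 41 proteasome genes was 0.04 in TAA, 0.17 in ETH, 0.18 in CPA, 0.03 in CIDB and 0.16 in DMN. It was 0.07 in PB, 0.00 in MPy and 0.02 in DES. Of 9 heat shock genes, 4 rose and 0 fell in each of DHEA, PBO and Wy (medians 0.33, 0.43 and 0.21). In ETH 3 rose and 1 fell (0.29), in TAA 2 and 0 (0.23) and in MPy 1 and 0 (-0.02). In CIDB 0 rose and 2 fell (0.02), and in Nif 0 rose and 1 fell (0.03; 3.78% and 4.68%). Whether either list is linked to the proteasome genes was not tested.

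Markers of other cells moved with some groups. Of 9 macrophage genes, 8 rose and 1 fell in ETH, with mean levels of 10.10 to 10.20 in ETH animals, against 9.01 to 9.50 in controls. In DMN 4 rose and 1 fell, with 9.80 to 10.03 in DMN animals, against 8.99 to 9.45 in controls. In DHEA 0 rose and 7 fell (8.75 to 9.10, against 9.56 to 9.74 in controls), and in Wy 0 rose and 4 fell (8.89 to 9.17, against the same controls). In DHEA 4 of 10 stellate and matrix genes and 2 of 4 endothelial genes also fell. In Wy 1 and 2 of these fell, in PBO 1 and 1, and 0 rose in these 3 compounds. Of 22 interferon and antigen presentation genes, which include Psmb8 and Psmb9, 12 rose in DMN (2.31% of probe sets), 14 in ETH (11.7%), 11 in Mcarb (0.782%) and 8 in AA (2.74%), and 0 fell in each. Psmb10, Psme1 and Psme2 were called in neither Mcarb nor AA. In Wy 1 of the 22 rose and 5 fell, in PBO 1 rose and 3 fell, in CPA 1 and 4 and in DHEA 1 and 2. In CIDB 3 rose and 1 fell (8.14% and 5.75%), and in DES 2 rose and 1 fell. Of 7 hepatocyte genes, 0 rose and 5 fell in DHEA, 0 and 6 in Wy and 1 and 3 in PBO. In CPA 0 rose and 3 fell (3.11% and 4.73%), in DES 1 and 2 (6.77% and 8.72%) and in ETH 2 and 1. The part of these markers, and of those given above for CIDB and CPA, in the proteasome results was not tested.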

How the data were processed

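RNA from 63 rat livers was hybridised to Affymetrix RAE230A arrays. The authors deposited log2 values made with RMA, a background correction and between-array normalization that summarises the probes of a set into 1 value; its version is not given in the sources used here. The number of arrays limits the precision. Of 15866 probe sets 12783 carried 1 symbol in the array annotation, 312 several and 2771 none.

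All arrays entered 1 limma 3.58.1 model with 21 group means (R 4.3.3; 42 residual degrees of freedom), and p-values of each contrast took the Benjamini-Hochberg adjustment across the whole array. The step was tested on simulated data. Tables were made with Python 3.11.15, pandas 2.3.3 and numpy 2.4.6, figures with matplotlib 3.10.9. With 3 animals a side the smallest two-sided exact permutation p is 0.1.

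Members and lists were chosen with earlier results of these data known. Named genes were, per compound, up to 5 of the highest and 5 of the lowest changes among those called with non-overlapping groups, plus genes called in most, in none or in opposite directions and those with disagreeing probe sets. Some further values (Psmb5, the chaperones and Psmc5 in CIDB) were named after they were seen. Alternatives were other normalization, weights, priors, controls, probe set rules and single arrays left out. The microRNA and protein data were not used here.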

Additional observations from a re-analysis of the deposited data

Results flagged for a closer look

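The 3 genes here were picked because they passed the test in opposite directions for 2 compounds that share MC set 5. Each direct difference passed limma, but opposite calls against the same control animals all but fix that outcome, so it adds no support. Psmb3 differed by -1.25 ± 0.11 between ETH and PBO (adjusted p = 2.11e-12), with changes of -0.30 in ETH and 0.95 in PBO. Psmd11 differed by -0.70 ± 0.10 between ETH and PBO (adjusted p = 1.87e-07), with -0.39 in ETH and 0.31 in PBO, though its other probe set changed by -0.09 and -0.27. Psmf1 differed by 1.14 ± 0.11 between ETH and DES (adjusted p = 1.53e-11), with 0.78 in ETH and -0.36 in DES. ETH was dosed for 14 days, PBO and DES for 3 days, so compound and days cannot be told apart.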

How the results depend on the processing

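The numbers of genes called in DHEA, PBO and Wy stayed within 1.5 times of 28, 27 and 22 under every alternative run, including other methylcellulose sets (chosen after seeing the data). Leaving out 1 animal gave 25 to 29 calls in DHEA, 26 to 29 in PBO and 15 to 22 in Wy, the lowest without Wy replicate 2, and 11 to 15 in ETH. Few-call compounds were less stable, and the cause was not tested. With only the 6 compared arrays the calls were 1 in AA, 1 in CIDB, 0 in Mcarb, 4 in MPy, 0 in PB and 1 in TAA. With array weights they were 4 in AA, 14 in CIDB, 10 in CPA, 17 in DMN, 7 in MPy and 7 in Nif. With controls pooled by vehicle they were 1 in AA, 3 in CIDB, 8 in CPA, 23 in ETH and 5 in Mcarb. With quantile normalization they were 19 in CPA, 9 in DES, 2 in Mcarb and 5 in PB. With a trend and robust prior they were 3 in CIDB and 1 in TAA, and with the mean of all probe sets per gene 1 in AA, 4 in MPy and 2 in PB. The main counts were 2 in AA, 5 in CIDB, 2 in CPA, 4 in DES, 4 in DMN, 15 in ETH, 1 in Mcarb, 2 in MPy, 2 in Nif, 1 in PB and 2 in TAA.

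Leaving out 1 animal gave 1 to 2 calls in AA (1 without AA replicate 1 or MC set 1 replicate 4 or 6), 1 to 8 in CIDB (8 without CO set 3 replicate 4, 1 without CIDB replicate 2 or 3 or CO set 3 replicate 6, 2 without replicate 5), 1 to 4 in CPA (4 without CPA replicate 3, 1 without CPA replicate 1 or 2 or CO set 4 replicate 3), 3 to 6 in DES, 3 to 6 in DMN, 0 to 2 in Mcarb (2 without Mcarb replicate 2, 0 without Mcarb replicate 3 or MC set 1 replicate 4 or 5), 1 to 1 in MPy, 0 to 3 in Nif (0 without Nif replicate 1 or MC set 2 replicate 10, 1 without Nif replicate 2 or 3 or MC set 2 replicate 12), 0 to 3 in PB (0 without PB replicate 3 or MC set 6 replicate 1, 3 without MC set 6 replicate 3) and 0 to 1 in TAA, in MPy and TAA whichever animal was left out. Replicate numbers are shared by CPA and CO set 4 and by PB and MC set 6. Deviations of same-numbered animals from their group means correlated at -0.153, 0.165 and 0.072 in CPA and -0.153, -0.048 and -0.049 in PB. No pairing was seen, but so few animals per group cannot exclude one. With the replicate block, fitted to the 6 compared arrays, 3 genes were called in CPA and 0 in PB, and without it the same arrays gave 2 and 0. The median change moved by more than the spread between animals to -0.06 in CFX and 0.04 in Nif (pooled controls), 0.11 in CIDB and 0.20 in DMN (array weights), 0.26 in CPA, 0.10 in DES, 0.10 in DMN and 0.01 in Nif (quantile normalization), 0.57 in DHEA against MC set 2, 0.11 in DMN against CO set 4, and 0.21, 0.26 and 0.22 in ETH against MC sets 1, 2 and 6. Over 48 named gene and compound pairs, 526 of 627 alternative values kept their call, 101 lost it and 0 changed direction; 17 pairs lost the call when some single animal was left out.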
